A study of Mus musculus with 12 samples.

Results

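Proximal tubule transport and metabolism genes were followed in sieved glomeruli of mice with and without anti-GBM glomerulonephritis (anti-GBM GN). The set is a list of 39 genes, and a gene was taken when a probe set of the arrays was annotated with its symbol and no other. Of the 39 genes, 38 had such a probe set, among 18201 genes in all, and each was represented by the probe set with the highest mean. Ggt1, a brush border gamma-glutamyltransferase, is unnamed in the annotation used. The samples were 12 female mice aged 8 to 10 weeks, 3 in each of 4 groups, namely controls and mice with anti-GBM GN of the inbred strain C57BL6J and of the inbred strain 129S2SvPAs (spelled 129S2SvPAS in the labels of the controls). Challenged mice received nephrotoxic serum on days 0, 1 and 2 and were killed on day 4, and glomeruli were passed through nylon sieves of 100 and 45 µm. The labels name no engineered allele, and whether the controls received any injection is not given in the sources used here. Each mouse gave 1 Affymetrix array. The p-values measure the spread between mice of the same group, pooled over the 4 groups and moderated by that of the other genes.

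The proximal tubule is the first segment of the nephron after the glomerulus. Its cells take up filtered glucose, phosphate, amino acids and sulfate through apical carriers driven by sodium, recover filtered protein through the endocytic receptors megalin and cubilin, and secrete organic anions taken from blood. They also make glucose, break down amino acids and drugs, and carry peptidases on the brush border. A glomerular preparation is meant to be free of these cells, so their transcripts are followed as a measure of tubule pieces that passed the sieves and of the state of those pieces. In bulk RNA, fewer tubule cells and less RNA per tubule cell cannot be told apart.

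Values are log2 probe set signals, and a difference of 1 is a doubling of the signal. Array medians lay between 2.99 and 3.06, and the median of the whole table, 3.03, was taken as the floor. Of the 38 genes 37 were tested, and 36 of these read above the floor on all 12 arrays, the exception being Dpys with 9. Slc7a13, which encodes a partner of the rBAT subunit in cystine transport, read between 2.68 and 2.86 and was not tested. The podocyte gene Nphs1, which encodes nephrin of the slit diaphragm, had means of 7.70 and 7.19 in C57BL6J control and anti-GBM GN, and 6.08 and 4.40 in 129S2SvPAs. Other podocyte markers did not all follow it, as counted below. The first 129S2SvPAs anti-GBM GN array stood apart, with correlations of 0.973 and 0.974 to the others of its group, which correlated at 0.994 with each other. Where leaving it out changed a call of a listed gene, both values are given. Genes were called at a Benjamini-Hochberg adjusted p under 0.05 in limma over 11921 genes, and differences carry the standard error (SE) of that fit.

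Anti-GBM GN was compared with control in each strain. In C57BL6J 3 of 37 genes fell and 0 rose, and in 129S2SvPAs 13 fell and 1 rose. Of all genes tested, 2.31% fell and 4.78% rose in C57BL6J, and 9.76% fell and 10.6% rose in 129S2SvPAs. At an unadjusted p under 0.05 in limma, 9 genes were lower and 0 higher in C57BL6J (10.9% of all genes were lower and 10.2% higher by that rule). The share of all genes by that rule was not counted in 129S2SvPAs. The 3 genes that fell in C57BL6J, Hpd, Cyp2e1 and Dnase1, also fell in 129S2SvPAs. Another 10 passed the threshold only in 129S2SvPAs, namely Agxt2, Anpep, Cubn, Gatm, Lrp2, Pdzk1, Slc3a1, Slc5a2, Slc6a19 and Slc9a3, which by itself does not show that their responses differed. Slc22a12 was the gene that rose.

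The median difference over the 37 genes was -0.17 in C57BL6J, against -0.03 over all genes tested, and -0.64 in 129S2SvPAs, against 0.00. In C57BL6J 11 genes had all challenged arrays below all control arrays (16% of all genes tested), and in 129S2SvPAs 20 did (16.1% of all genes). The differences were negative in both strains for 27 genes and positive in both for Kap, Slc13a1 and Slc22a12. The other 7 genes, G6pc, Keg1, Pck1, Slc17a3, Slc22a6, Slc22a8 and Slc4a4, had opposite signs, and none of the 7 was called in either strain. Without the array that stands apart, 5 genes fell in C57BL6J and 16 in 129S2SvPAs. The share of all genes that fell in that fit is not given here, so these counts are not a result about the listed genes alone. In C57BL6J the added calls, Cyp4b1 and Dpys, came through the shared spread, with unchanged differences of -1.16 and -1.10.

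**Figure D1:**
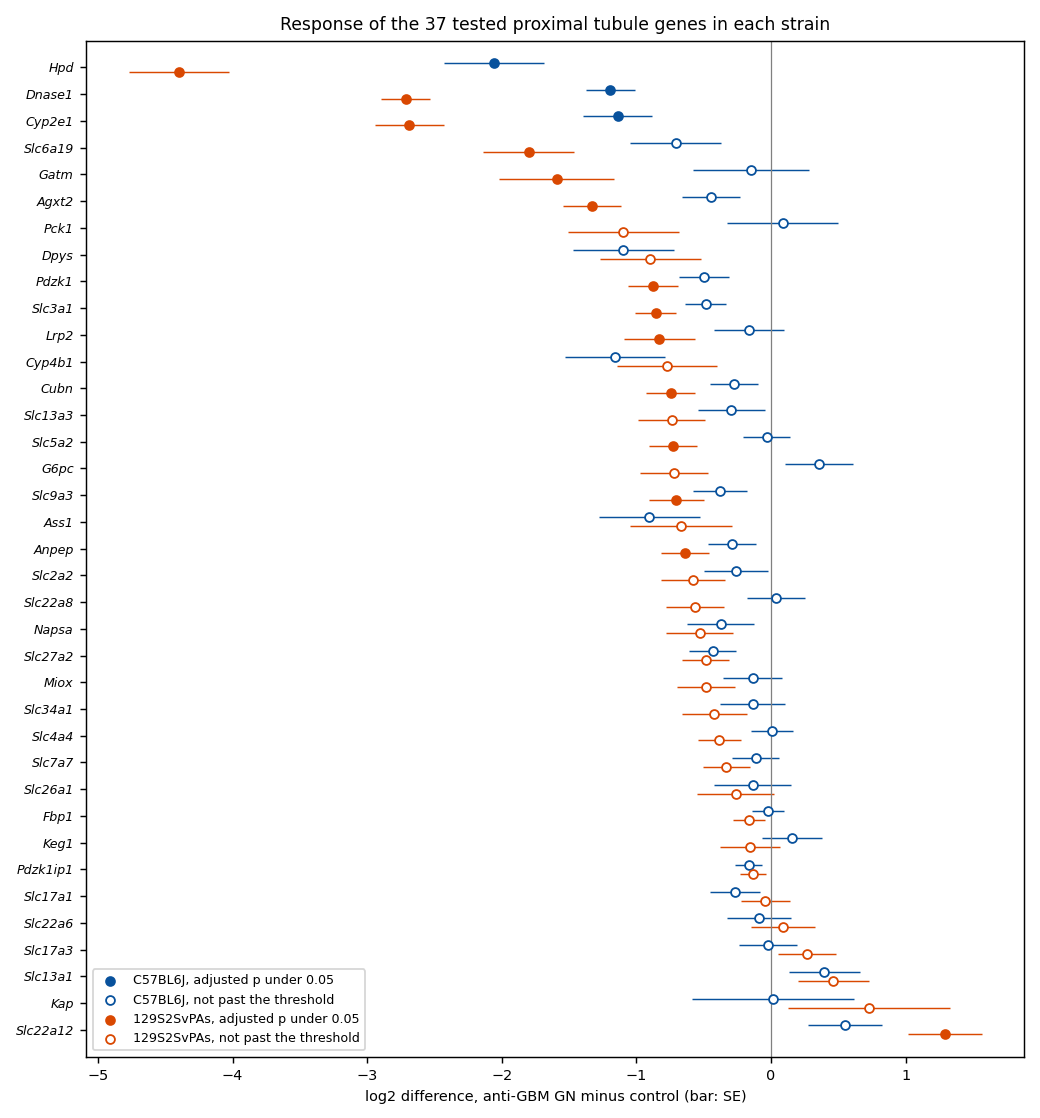
Log2 difference between anti-GBM GN and control (x axis) for each of the 37 tested genes (y axis, ordered by the 129S2SvPAs value), in C57BL6J (blue) and 129S2SvPAs (orange), with bars for the SE and filled points for genes past the threshold. Hpd is farthest to the left in both strains, at -2.06 and -4.40, and Slc22a12 is the filled point to the right of 0, at 1.29.

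The differences of greatest size were in enzymes and a nuclease. Hpd, which encodes 4-hydroxyphenylpyruvate dioxygenase of tyrosine breakdown, read 10.51, 11.46 and 11.00 in C57BL6J controls and 9.15, 8.94 and 8.70 in challenged C57BL6J mice. In 129S2SvPAs it read 13.23, 13.74 and 13.11 in controls and 9.90, 8.61 and 8.38 in challenged mice. The groups did not overlap in either strain, the 129S2SvPAs controls were the highest arrays of all, and the challenged mice of the strains overlapped each other. Hpd fell by 2.06 (SE 0.37, adjusted p = 0.00729 in limma) in C57BL6J and by 4.40 (SE 0.37, adjusted p = 3.62e-05 in limma) in 129S2SvPAs, or 4.17-fold and 21.1-fold in signal.

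Cyp2e1, a cytochrome P450 that oxidises ethanol and other small molecules, followed the same order of groups. Its C57BL6J controls read 9.80, 10.81 and 10.45 and the challenged mice 9.06, 9.23 and 9.35. Its 129S2SvPAs controls read 11.87, 12.51 and 11.72 and the challenged mice 9.25, 9.44 and 9.35. All challenged arrays, of both strains, lay below all control arrays. Cyp2e1 fell by 1.14 (SE 0.25, adjusted p = 0.0223 in limma) in C57BL6J and by 2.69 (SE 0.25, adjusted p = 6.84e-05 in limma) in 129S2SvPAs. The C57BL6J call was lost when C57BL6J control replicate 2 or 3 or C57BL6J anti-GBM GN replicate 1 or 2 was left out (adjusted p up to 0.084 in limma), and with no filter on low values (adjusted p = 0.0528 in limma).

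Dnase1 encodes the secreted nuclease deoxyribonuclease I, which the kidney releases. It read 13.58, 14.11 and 13.71 in C57BL6J controls, 12.53, 12.59 and 12.70 in challenged C57BL6J mice, 14.41, 14.74 and 14.36 in 129S2SvPAs controls and 12.08, 11.80 and 11.49 in challenged 129S2SvPAs mice. None of the 4 groups overlapped another, and the 129S2SvPAs groups were the highest and the lowest. Dnase1 fell by 1.19 in C57BL6J (SE 0.18, adjusted p = 0.0028 in limma) and by 2.71 in 129S2SvPAs (SE 0.18, adjusted p = 7.82e-06 in limma).

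**Figure D2:**
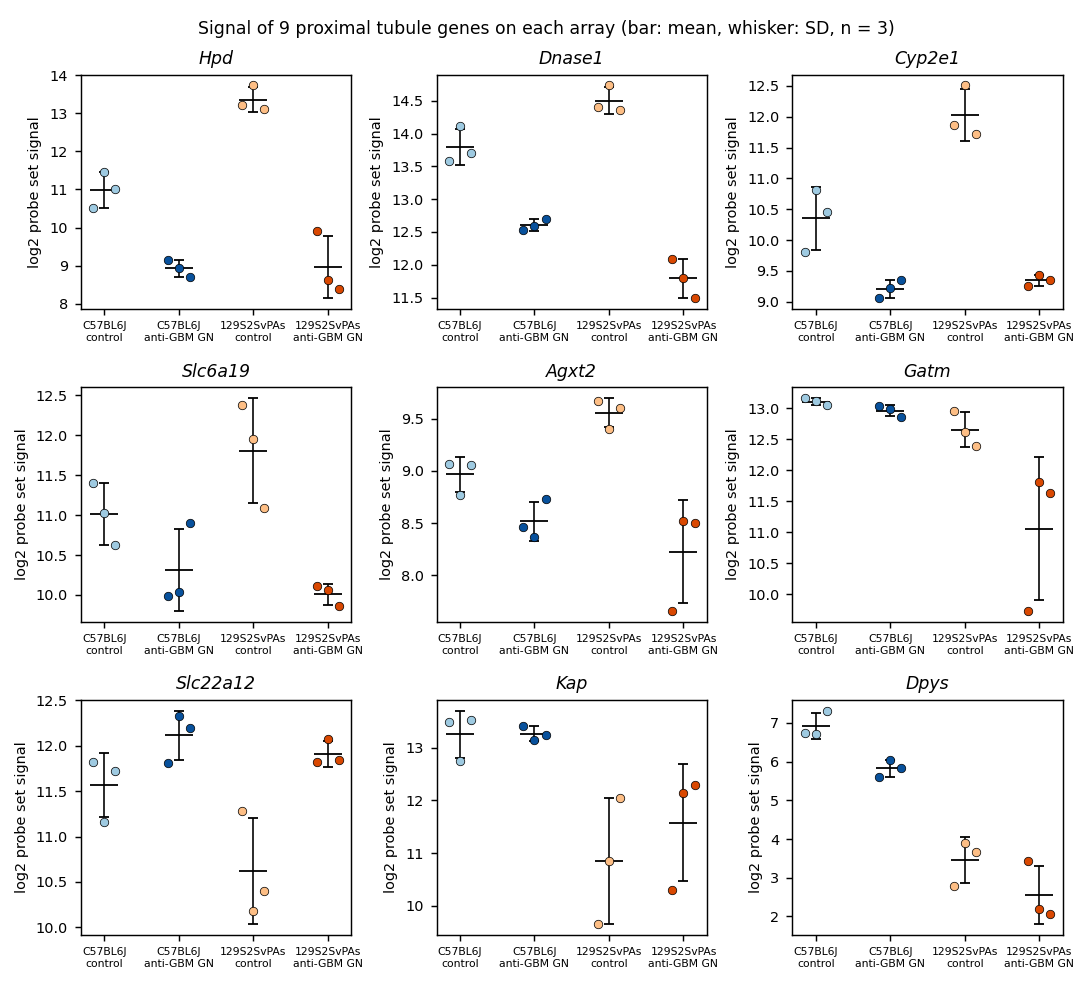
Log2 probe set signal (y axis) of 9 genes on each array in the 4 groups (x axis); each point is 1 mouse, the horizontal bar is the group mean and the whisker the SD (n = 3). Hpd and Cyp2e1 are highest in the 129S2SvPAs controls, Slc22a12 is lowest there, and Dpys and Kap separate the strains.

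Beside Cyp2e1, the other drug and fatty acid oxidising P450 of the list, Cyp4b1, did not pass the threshold. It read 11.47, 12.23 and 11.62 in C57BL6J controls against 10.92, 10.72 and 10.20 in challenged mice, without overlap (-1.16, SE 0.37, adjusted p = 0.0961 in limma). In 129S2SvPAs the controls (12.53, 12.58 and 11.72) overlapped the challenged mice (12.34, 11.09 and 11.09), of which the first array was high. Without that array the 129S2SvPAs difference went from -0.77 to -1.19 (adjusted p = 0.0229 in limma), and the C57BL6J one, through the shared spread, was also called (adjusted p = 0.0298 in limma). Keg1, a kidney gene related to glycine N-acyltransferases, had differences of 0.16 and -0.15.

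Among amino acid carriers, Slc6a19, the apical carrier of neutral amino acids known as B0AT1, read 12.38, 11.96 and 11.09 in 129S2SvPAs controls and 10.11, 10.06 and 9.86 in challenged mice, without overlap. It fell by 1.80 there (SE 0.34, adjusted p = 0.00376 in limma). The C57BL6J arrays overlapped, with 11.40, 11.03 and 10.62 in controls and 9.99, 10.04 and 10.90 in challenged mice (-0.71, SE 0.34, adjusted p = 0.264 in limma).

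Slc3a1, the rBAT subunit of the cystine and dibasic amino acid carrier, read 11.16, 11.46 and 11.08 in 129S2SvPAs controls and 10.14, 10.54 and 10.45 in challenged mice, and fell by 0.86 (SE 0.15, adjusted p = 0.0028 in limma). In C57BL6J it read 11.17, 11.09 and 11.35 against 10.62, 10.61 and 10.93, also without overlap, but did not pass the threshold (-0.48, SE 0.15, adjusted p = 0.0914 in limma). Slc7a7, the basolateral exporter of dibasic amino acids, had differences of -0.11 and -0.33 and was not called.

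Of the 4 genes of apical endocytosis and its scaffold, 3 fell in 129S2SvPAs and 0 in C57BL6J, against 9.76% and 2.31% of all genes tested. The 3 were Cubn, Pdzk1 and Lrp2, and the call of Lrp2 depended on single arrays and on the processing, as described below. Cubn, which encodes the receptor cubilin, read 11.58, 11.80 and 11.58 in 129S2SvPAs controls against 10.77, 11.16 and 10.79 (-0.75, SE 0.18, adjusted p = 0.0139 in limma). Its C57BL6J arrays overlapped, with 11.91, 11.75 and 12.02 against 11.26, 11.62 and 11.97 (-0.28, SE 0.18). Pdzk1, a scaffold that anchors apical carriers, read 12.03, 12.28 and 12.42 in 129S2SvPAs controls and 11.29, 11.45 and 11.36 in challenged mice. It fell by 0.88 there (SE 0.18, adjusted p = 0.00707 in limma), and had a value of -0.50 in C57BL6J (adjusted p = 0.144 in limma). Its small membrane partner Pdzk1ip1 had differences of -0.17 and -0.13.

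Lrp2, which encodes megalin, read 12.12, 12.07 and 11.69 in 129S2SvPAs controls and 10.45, 11.64 and 11.30 in challenged mice, the first of these being the array that stands apart. The challenged mice lay below the controls by a narrow margin, and the difference of -0.83 (SE 0.26) passed the threshold at adjusted p = 0.0468 in limma. Without that array it was -0.49 and not called (adjusted p = 0.0842 in limma). The call also ended without any 1 of the other arrays except 129S2SvPAs control replicate 3 and 129S2SvPAs anti-GBM GN replicate 2, with adjusted p up to 0.134 in limma. It ended too with the replicate number of the labels as a block (the replicate block, adjusted p = 0.0563 in limma), with quantile normalization (0.0607), with no filter (0.0947) and with only the arrays of the groups compared in the fit (0.161). In C57BL6J the arrays overlapped, at 12.20, 11.93 and 12.11 against 11.66, 12.02 and 12.07 (-0.16, SE 0.26).

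Of the 8 carriers of glucose, phosphate, sulfate, dicarboxylates and acid or base, 2 fell in 129S2SvPAs and 0 in C57BL6J. The shares of all genes that fell were 9.76% and 2.31%. Slc5a2, the apical glucose carrier SGLT2, read 12.59, 12.42 and 12.44 in 129S2SvPAs controls and 11.82, 11.85 and 11.59 in challenged mice (-0.73, SE 0.18, adjusted p = 0.0142 in limma). In C57BL6J the groups lay on top of each other, at 12.49, 12.50 and 12.87 against 12.26, 12.54 and 12.96 (-0.03, SE 0.18). Leaving out 129S2SvPAs control replicate 1 or 129S2SvPAs anti-GBM GN replicate 3 ended the 129S2SvPAs call (adjusted p up to 0.0523 in limma).

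Slc9a3, the sodium and proton exchanger NHE3, had a value of -0.70 in 129S2SvPAs (SE 0.20, adjusted p = 0.0315 in limma), from 10.03, 9.48 and 9.33 to 8.95, 8.85 and 8.93. The first control array was the highest, and without it the difference was -0.49 (adjusted p = 0.106 in limma). Leaving out any 1 of the 3 challenged 129S2SvPAs arrays also ended the call, with adjusted p up to 0.0901 in limma, as did no filter (0.0596) and only the groups compared (0.0746). Without the array that stands apart, the value was -0.72 (adjusted p = 0.051 in limma). In C57BL6J the difference was -0.38 (SE 0.20, adjusted p = 0.322 in limma).

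Slc34a1, the main apical phosphate carrier, did not pass the threshold in any comparison. It read 12.24, 12.52 and 12.90 in C57BL6J controls, 11.94, 12.41 and 12.90 in challenged C57BL6J mice, 12.55, 12.56 and 12.56 in 129S2SvPAs controls and 12.39, 12.17 and 11.85 in challenged 129S2SvPAs mice. The C57BL6J groups overlapped, and the 129S2SvPAs challenged arrays all lay below their controls (-0.42, SE 0.24, adjusted p = 0.259 in limma). The dicarboxylate carrier Slc13a3 (-0.74), the basolateral glucose carrier Slc2a2 (-0.58), the bicarbonate carrier Slc4a4 (-0.38) and the sulfate carrier Slc26a1 (-0.26) were also negative and not called in 129S2SvPAs. Slc13a3 was called there without the array that stands apart (-1.02, adjusted p = 0.00702 in limma). The sulfate carrier Slc13a1 had positive values of 0.40 and 0.46.

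Of the 6 carriers of organic anions, urate and fatty acids, 0 fell in either strain and 1 rose in 129S2SvPAs, where 10.6% of all genes rose. At an unadjusted p under 0.05 in limma, Slc27a2 was lower in C57BL6J, where 10.9% of all genes were lower by that rule. Slc22a12, the apical urate exchanger URAT1, read 11.28, 10.18 and 10.40 in 129S2SvPAs controls and 11.82, 12.07 and 11.84 in challenged mice. The challenged arrays were close together and all above the controls, and Slc22a12 rose by 1.29 (SE 0.28, adjusted p = 0.00754 in limma), or 2.45-fold. In C57BL6J it read 11.82, 11.16 and 11.72 against 11.81, 12.33 and 12.20, with overlap (0.55, SE 0.28, adjusted p = 0.292 in limma). The 129S2SvPAs call remained in every alternative run.

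The basolateral organic anion carriers Slc22a6 (OAT1) and Slc22a8 (OAT3) had 129S2SvPAs differences of 0.09 (SE 0.24) and -0.56 (SE 0.22). The apical anion carriers Slc17a1 and Slc17a3 had values of -0.04 and 0.27. For Slc27a2, which activates and takes up fatty acids, the values were -0.43 in C57BL6J and -0.49 in 129S2SvPAs, without overlap between control and challenged arrays in either strain, and neither passed the threshold (adjusted p = 0.177 and 0.0727 in limma). Without the array that stands apart, the 129S2SvPAs value was -0.62 and was called (adjusted p = 0.0313 in limma).

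The 3 gluconeogenic genes passed the threshold in neither strain. Pck1, the cytosolic phosphoenolpyruvate carboxykinase, read 13.27, 13.56 and 13.38 in 129S2SvPAs controls and 13.41, 11.46 and 12.05 in challenged mice. The array at 13.41 is the one that stands apart, and it lay within the range of the controls while the others were well below. The difference was -1.10 (SE 0.41, adjusted p = 0.0876 in limma), and without that array it was -1.65 (adjusted p = 0.00261 in limma). In C57BL6J Pck1 read 12.94, 13.17 and 13.42 against 12.70, 13.58 and 13.51 (0.09, SE 0.41).

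G6pc, the glucose-6-phosphatase, read 12.53, 12.73 and 12.37 in 129S2SvPAs controls and 11.49, 12.19 and 11.79 in challenged mice, without overlap (-0.72, SE 0.25, adjusted p = 0.0682 in limma). In C57BL6J it read 11.77, 11.74 and 12.32 against 12.63, 12.47 and 11.80, with overlap (0.36, SE 0.25). Fbp1, the fructose bisphosphatase, lay between 13.85 and 14.26 on all arrays and had differences of -0.02 and -0.17.

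Among other enzymes of nitrogen metabolism, Agxt2, a mitochondrial aminotransferase, read 9.67, 9.40 and 9.60 in 129S2SvPAs controls and 7.66, 8.52 and 8.50 in challenged mice. It fell by 1.33 (SE 0.22, adjusted p = 0.00169 in limma), and by 1.05 without the array that stands apart (adjusted p = 0.000957 in limma). The C57BL6J arrays did not overlap either (9.07, 8.77 and 9.06 against 8.46, 8.37 and 8.73), but the difference of -0.45 was not called (adjusted p = 0.271 in limma).

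Gatm, which makes the creatine precursor guanidinoacetate, read 12.95, 12.62 and 12.39 in 129S2SvPAs controls and 9.73, 11.81 and 11.64 in challenged mice. Here the array that stands apart was the lowest by far. The difference was -1.59 (SE 0.43, adjusted p = 0.0235 in limma), and without that array -0.93, still called (adjusted p = 0.00249 in limma). The call ended without 129S2SvPAs control replicate 1 or 2 (adjusted p up to 0.0789 in limma), with no filter (0.0596) and with only the groups compared (0.133). In C57BL6J Gatm read 13.16, 13.12 and 13.05 against 13.03, 12.99 and 12.86, without overlap. The difference was -0.15 (SE 0.43, from the spread pooled over the 4 groups).

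Miox, the inositol oxygenase, had a value of -0.48 in 129S2SvPAs and -0.14 in C57BL6J, with the first challenged 129S2SvPAs array again lowest at 12.98. Ass1, argininosuccinate synthase of arginine synthesis, read 4.67, 4.24 and 5.32 against 4.41, 3.28 and 3.83 in C57BL6J, and 5.67, 4.42 and 4.63 against 4.25, 4.41 and 4.06 in 129S2SvPAs. Its differences of -0.90 and -0.67 (SE 0.38 in both) were not called. The Ass1 probe set used was dim, with a mean of 4.43 over all arrays. A brighter probe set that also names another gene had its challenged arrays below the controls in both strains, as given under the other observations. Dpys, the dihydropyrimidinase of pyrimidine breakdown, is described with the strain differences. Its responses were -1.10 in C57BL6J and -0.90 in 129S2SvPAs, where it lay close to the floor, and neither was called (adjusted p = 0.118 and 0.121 in limma). Both were called without the array that stands apart, at -1.10 and -1.33 (adjusted p = 0.0359 and 0.0132 in limma).

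Of the peptidases and secreted proteins other than Dnase1, the brush border aminopeptidase Anpep passed the threshold in 129S2SvPAs, from 5.60, 5.42 and 5.34 to 5.28, 4.68 and 4.48 (-0.64, SE 0.18, adjusted p = 0.0267 in limma). The highest challenged array, the one that stands apart, was just below the lowest control. The call ended without 129S2SvPAs control replicate 1 or 2 or 129S2SvPAs anti-GBM GN replicate 2 or 3 (adjusted p up to 0.0918 in limma), and with only the groups compared (adjusted p = 0.13 in limma). The aspartic peptidase Napsa read 11.21, 11.18 and 11.71 in C57BL6J controls, 11.00, 10.95 and 11.03 in challenged C57BL6J mice, 10.36, 10.96 and 11.17 in 129S2SvPAs controls and 9.87, 10.33 and 10.70 in challenged 129S2SvPAs mice. It was not called in any comparison.

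The promoters of the genes were searched, as a description, for the letters of HNF4 and nuclear receptor sites, factors known from the proximal tubule. A window of 250 bases before the start was found for 33 of the 38 genes in the RefSeq table (GRCm38.p6), and the first window was used where a gene had several. The HNF4 letters CAAAGTCCA, on either strand, were in 2 of 33 windows (6.06%) and in 0.381% of the windows of 27025 genes. A direct repeat bound by nuclear receptors was in 0 of 33 windows and in 0.037% of all. The 100 bases before the start of the 2 genes with the HNF4 letters, Agxt2 and Slc3a1, are shown because they hold these letters. Capitals mark the matched letters, 5′ to 3′ on the + strand, ending at the base before the start. Agxt2 is chr15:10358433-10358532 and Slc3a1 chr17:85028247-85028346.
Agxt2: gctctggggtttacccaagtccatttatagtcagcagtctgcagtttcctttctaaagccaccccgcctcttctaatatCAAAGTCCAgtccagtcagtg
Slc3a1: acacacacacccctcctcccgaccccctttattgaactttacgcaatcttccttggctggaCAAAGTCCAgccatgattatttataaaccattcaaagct

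Whether the response differed between the strains was tested by the difference of the responses, 129S2SvPAs minus C57BL6J. It was lower in 1 of 37 genes, Dnase1, and higher in 0, against 0.294% and 0.268% of all genes tested. For Dnase1 it was -1.52 (SE 0.26, adjusted p = 0.0358 in limma), so that the fall was 2.87-fold deeper in 129S2SvPAs. That call ended when any 1 array was left out except C57BL6J control replicate 2 or 129S2SvPAs anti-GBM GN replicate 1, with adjusted p up to 0.0942 in limma, although the difference stayed between -1.68 and -1.37. It also ended with no filter (adjusted p = 0.0613 in limma) and with the replicate block (adjusted p = 0.0539 in limma).

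The difference of responses was negative in 27 of the 37 genes, with a median of -0.32 against 0.03 over all genes. It had an unadjusted p under 0.05 in 8, all lower: Agxt2, Cyp2e1, Dnase1, G6pc, Gatm, Hpd, Slc5a2 and Slc6a19 (5.39% of all genes tested were lower and 5.5% higher by that rule, and 0 of the 37 were higher). For Hpd it was -2.34 (SE 0.53, adjusted p = 0.11 in limma) and for Cyp2e1 -1.55 (SE 0.36, adjusted p = 0.121 in limma). Without the array that stands apart, the Hpd difference of responses was -2.81 and was called (adjusted p = 0.01 in limma), and Dnase1 remained called. With array weights, Hpd and Cyp2e1 were called as well as Dnase1. For the 10 genes that fell in 129S2SvPAs and were not called in C57BL6J, the difference of responses was not called. A difference in response between the strains was therefore not shown for them.

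The strains were also compared directly. In controls 3 of 37 genes were higher in 129S2SvPAs and 2 lower, against 3.32% and 5.11% of all genes tested, and the median was 0.06. The 3 that were higher were those that fell in both strains: Hpd by 2.37 (SE 0.37, adjusted p = 0.00281 in limma), Cyp2e1 by 1.68 (SE 0.25, adjusted p = 0.00223 in limma) and Dnase1 by 0.70 (SE 0.18, adjusted p = 0.0378 in limma). In challenged mice Hpd differed by 0.03 and Cyp2e1 by 0.13 between the strains, and neither was called. These control arrays are also those of the responses, so the comparisons share them. The Dnase1 control call ended when any 1 array was left out except C57BL6J control replicate 2, C57BL6J anti-GBM GN replicate 3 or 129S2SvPAs anti-GBM GN replicate 1 or 3, with adjusted p up to 0.117 in limma, and with no filter (0.0664) or only the groups compared (0.082). Agxt2, which was not called between controls (0.59, adjusted p = 0.132 in limma), was called without the array that stands apart (0.59, adjusted p = 0.0192 in limma).

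In anti-GBM GN 5 genes were lower in 129S2SvPAs and 0 higher, against 4.89% and 3.49% of all genes tested, and the median was -0.28. Besides Dpys the 5 were Gatm (-1.90, SE 0.43, adjusted p = 0.0205 in limma), Slc5a2 (-0.83, adjusted p = 0.0152 in limma), Dnase1 (-0.82, adjusted p = 0.0192 in limma) and Cubn (-0.71, adjusted p = 0.0346 in limma). At an unadjusted p under 0.05 in limma, 13 genes were lower and 2 higher, the latter being Cyp4b1 and Slc17a3 (11.2% of all genes were lower and 10.2% higher by that rule). Without C57BL6J anti-GBM GN replicate 3 the median was -0.10. In controls Gatm (-0.46), Slc5a2 (-0.14) and Cubn (-0.24) were not called. Without the array that stands apart, Gatm differed by -1.24 and remained called, while Cubn did not (-0.64, adjusted p = 0.0804 in limma). Pck1 went from -0.96 to -1.51 without that array and was then called (adjusted p = 0.00899 in limma). Anpep went from -0.47 to -0.70 without it and was also called (adjusted p = 0.00493 in limma). The Gatm call ended without C57BL6J anti-GBM GN replicate 1 or 2 (adjusted p up to 0.0695 in limma), and the Slc5a2 call without 129S2SvPAs anti-GBM GN replicate 3 (0.0595). The Dnase1 call ended without C57BL6J anti-GBM GN replicate 2 or 3 or 129S2SvPAs anti-GBM GN replicate 2 or 3 (up to 0.0685). The Cubn call ended without C57BL6J control replicate 1, C57BL6J anti-GBM GN replicate 2 or 3 or 129S2SvPAs anti-GBM GN replicate 1 or 3 (up to 0.112). With only the groups compared, these 4 calls ended (Gatm 0.112, Slc5a2 0.0733, Dnase1 0.0517, Cubn 0.133), and with no filter Gatm (0.0566) and Cubn (0.0627) ended.

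**Figure D3:**
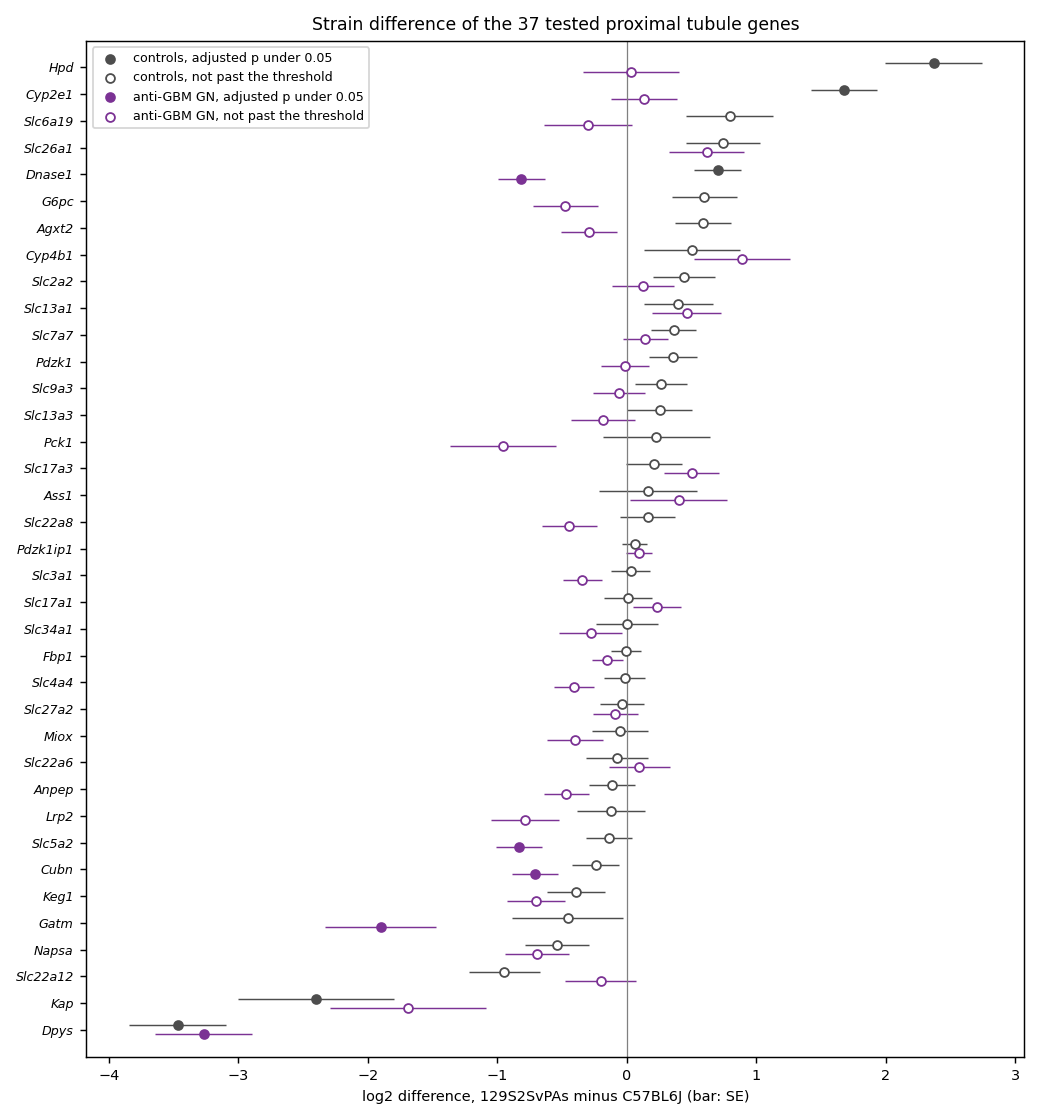
Log2 difference between the strains, 129S2SvPAs minus C57BL6J (x axis), for each of the 37 tested genes (y axis, ordered by the value in controls), in controls (grey) and anti-GBM GN (purple), with bars for the SE and filled points for genes past the threshold. Hpd and Cyp2e1 are at 2.37 and 1.68 in controls and at 0.03 and 0.13 in anti-GBM GN, whereas Dpys is far to the left in both.

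Dpys was lower in 129S2SvPAs whatever the treatment. It read 6.75, 6.71 and 7.31 in C57BL6J controls, 5.60, 6.05 and 5.83 in challenged C57BL6J mice, 2.78, 3.91 and 3.67 in 129S2SvPAs controls and 3.42, 2.18 and 2.07 in challenged 129S2SvPAs mice. All 6 C57BL6J arrays were above all 6 129S2SvPAs arrays, of which 3 were below the floor. The difference was -3.47 in controls (SE 0.38, adjusted p = 0.000244 in limma) and -3.27 in anti-GBM GN (SE 0.38, adjusted p = 0.000369 in limma). The 129S2SvPAs values lie near the floor, and whether this misstates the size of the difference was not tested. Another Dpys probe set differed by -2.83 and -1.42, and the remaining one, near the floor, by -0.20 and -0.07.

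Kap, the kidney androgen-regulated protein of tubule cells, read 13.49, 12.74 and 13.53 in C57BL6J controls and 13.42, 13.14 and 13.25 in challenged C57BL6J mice. In 129S2SvPAs it read 9.66, 10.85 and 12.04 in controls and 10.30, 12.14 and 12.30 in challenged mice, a spread far wider than in C57BL6J. The strain difference was -2.40 in controls (SE 0.60, adjusted p = 0.0335 in limma) and -1.69 in anti-GBM GN, where it was not called (SE 0.60, adjusted p = 0.126 in limma). All arrays of 129S2SvPAs were below all arrays of C57BL6J. The control call ended without C57BL6J control replicate 1, 2 or 3, C57BL6J anti-GBM GN replicate 2 or 129S2SvPAs control replicate 1 or 2 (adjusted p up to 0.106 in limma), and with no filter (0.0809) or only the groups compared (0.079).

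Other genes of the same pathways, from lists of genes outside the 39, were counted in the same fit. These lists too were chosen with earlier results of these data known, and the genes named in this paragraph have the lowest p. Of 26 other proximal tubule carriers, 1 fell and 0 rose in C57BL6J, and 10 fell and 1 rose in 129S2SvPAs (medians -0.25 and -0.51). Slc22a4, a carnitine and ergothioneine carrier, fell by 1.57 in C57BL6J (SE 0.18, adjusted p = 0.000546 in limma) and by 2.79 in 129S2SvPAs (SE 0.18, adjusted p = 7.05e-06 in limma). It read 7.95, 7.50 and 7.87 against 5.83, 6.20 and 6.57 in C57BL6J, and 8.27, 8.23 and 8.20 against 5.30, 5.60 and 5.44 in 129S2SvPAs. Slc5a8, a monocarboxylate carrier, fell by 1.96 in 129S2SvPAs (SE 0.21, adjusted p = 0.000128 in limma). Of 33 other metabolic and brush border genes 7 fell in C57BL6J, and in 129S2SvPAs 13 fell and 1 rose (medians -0.36 and -0.55).

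Of 8 tested transcription factors and coregulators of these cells, 0 fell in C57BL6J and 2 in 129S2SvPAs. Ppargc1a, a coactivator of mitochondrial genes, read 8.42, 8.42 and 8.44 in 129S2SvPAs controls and 7.50, 7.19 and 7.34 in challenged mice (-1.08, SE 0.12, adjusted p = 0.000167 in limma), and Esrra, its nuclear receptor partner, fell by 0.82 (adjusted p = 0.00883 in limma). Hnf4a, which maintains the proximal tubule programme, had values of -0.12 and -0.26 and was not called.

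Markers of other cells and of injury moved in the same samples. The mean of the 37 genes on each array, as a deviation from each gene's mean over the 12 arrays, ran from 0.146 to 0.388 in C57BL6J controls, from -0.215 to 0.067 in challenged C57BL6J mice, from 0.156 to 0.356 in 129S2SvPAs controls and from -0.491 to -0.372 in challenged 129S2SvPAs mice. Control and challenged arrays did not overlap in either strain. Of 20 markers of later segments, from the loop to the collecting duct, 1 fell in C57BL6J, and 7 fell and 2 rose in 129S2SvPAs. Their array means ran from 0.332 to 0.462 in 129S2SvPAs controls and from -0.400 to -0.079 in challenged 129S2SvPAs mice, without overlap. In C57BL6J they overlapped, from -0.157 to 0.213 in controls and from -0.607 to 0.223 in challenged mice. Umod, the uromodulin of the thick ascending limb, had positive values of 0.35 and 0.25 without a call.

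Of 14 tubular injury markers 5 rose in C57BL6J and 8 in 129S2SvPAs, and 0 fell. Havcr1, the proximal tubule injury molecule KIM-1, read 3.09, 2.87 and 3.76 in 129S2SvPAs controls and 5.53, 8.32 and 8.95 in challenged mice (4.36, SE 0.76, adjusted p = 0.00256 in limma). In C57BL6J it read 2.64, 2.72 and 2.60, below the floor, against 3.16, 5.24 and 4.33 (1.59, adjusted p = 0.266 in limma). Of 13 podocyte markers 1 rose and 0 fell in C57BL6J, and 3 rose and 2 fell in 129S2SvPAs (medians 0.05 and -0.07). Between the strains, 9 of the 13 podocyte markers were lower in 129S2SvPAs than in C57BL6J controls, and 7 in anti-GBM GN. Their array means ran from 0.231 to 0.915 in C57BL6J and from -0.943 to -0.182 in 129S2SvPAs.

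Markers of the other glomerular cells and of leukocytes were counted in the same way. Of 8 mesangial and smooth muscle markers 3 rose in C57BL6J and 4 in 129S2SvPAs, and 0 fell. Their array means ran from -0.845 to -0.213 in controls and from 0.645 to 1.009 in challenged mice in C57BL6J, and from -0.956 to -0.798 and from 0.388 to 0.863 in 129S2SvPAs. Of 5 parietal epithelial markers 1 rose in C57BL6J and 2 in 129S2SvPAs, with array means from -0.650 to -0.332 and from 0.502 to 0.594 in C57BL6J, and from -0.954 to -0.420 and from 0.554 to 0.604 in 129S2SvPAs. Control and challenged arrays overlapped for neither list in either strain.

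Of 12 endothelial markers 1 rose and 1 fell in C57BL6J, and 6 rose and 1 fell in 129S2SvPAs (medians 0.38 and 1.03). All 12 had negative values in 129S2SvPAs against C57BL6J controls, and 4 of these were called. Their array means ran from -0.045 to 0.682 in C57BL6J controls, from 0.188 to 0.813 in challenged C57BL6J mice, from -1.484 to -0.162 in 129S2SvPAs controls and from -0.132 to 0.124 in challenged 129S2SvPAs mice, so that control and challenged arrays overlapped in C57BL6J only. Of 5 leukocyte markers tested 0 were called in either response in limma. At an unadjusted p under 0.05 in limma, 2 were higher and 0 lower in C57BL6J, against 10.2% and 10.9% of all genes. The part of the share of tubule, podocyte or other cells in the results on the 37 genes was not tested.

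**Figure D4:**
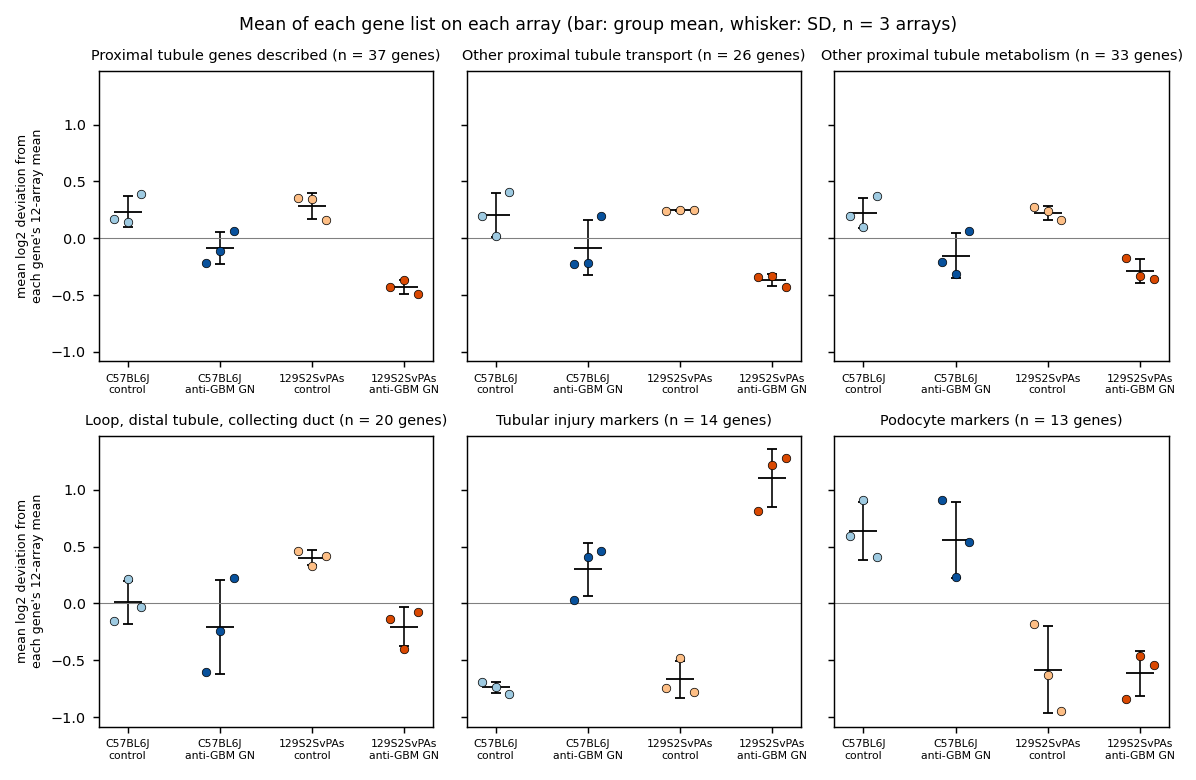
Mean log2 deviation from each gene's mean over 12 arrays (y axis) for 6 gene lists on each array in the 4 groups (x axis); each point is 1 mouse, the bar the group mean and the whisker the SD (n = 3). The 37 genes and the other proximal tubule lists have their lowest group means in challenged 129S2SvPAs mice, injury markers have their highest there, and podocyte markers are higher in C57BL6J.

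A further check was the other probe sets. Of the 38 genes 19 had several, 65 probe sets in all. Another Pck1 probe set differed by -0.98 in C57BL6J where the one used differed by 0.09, while all 3 were negative in 129S2SvPAs (-1.10, -1.61 and -1.52). The other Slc22a8 probe set differed by -0.61 in C57BL6J, against 0.04, and by -0.84 in 129S2SvPAs, against -0.56. The brighter of the other Dpys probe sets differed by -0.09 in 129S2SvPAs, against -0.90. With a gene's probe sets averaged, Lrp2 differed by -0.45 in 129S2SvPAs and was not called (adjusted p = 0.083 in limma).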

How the data were processed

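Biotin-labelled total RNA of 12 glomerular samples was hybridised to Affymetrix mouse arrays, per the labels' protocols. The authors deposited log2 signals per probe set, with 2 decimals, from 1.12 to 15.02. MAS5 and GCRMA are named in the submitters' processing notes, with no version and with no word on which of them was used. The values themselves gave the log2 scale. Samples were grouped by the labels' strain and treatment. No scan date or batch is given in the sources used here. Array number limits the precision.

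Probe sets were named through the platform annotation. Of 45037, 34957 had 1 symbol, 920 several and 9160 none. The 11921 genes above 3.03 on at least 3 arrays entered limma 3.58.1 (R 4.3.3), with 1 mean per group over all 12 arrays, 5 contrasts, empirical Bayes moderation and Benjamini-Hochberg adjustment per contrast. The fit was tested on simulated data. Same-numbered samples deviated together (each pair's correlation over 0.1) between C57BL6J control and anti-GBM GN and between the controls of the strains, a pairing read from the values, since the labels do not say what a number marks. Alternatives were other normalization, filters, probe set rules, priors, array weights, only the groups compared, the replicate block, a minimum log2 difference of 1, and single arrays left out.

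The genes and lists were chosen with earlier results of these data known. Values on every array are given for up to 6 called genes per comparison with the lowest p and non-overlapping arrays, for 12 fixed genes, and for other listed genes chosen after their values were seen. Of the other lists, up to 4 genes per comparison with the lowest p and 6 fixed genes could be named. A further promoter motif searched is not reported here. Python 3.11.15, pandas 2.3.3 and matplotlib 3.10.9 drew the figures.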

Additional observations from a re-analysis of the deposited data

Results flagged for a closer look

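The test of the difference of responses (129S2SvPAs minus C57BL6J) passed the threshold in 3 of the genes named. Of all genes tested, 0.294% were lower and 0.268% higher in this test. Genes of the other lists were named partly for having the lowest p in a comparison, so the count of 3 depends on that choice. Each of the 3 calls depended on single arrays. For the nuclease gene Dnase1 the difference was -1.52 (SE 0.26, adjusted p = 0.0358 in limma), with a deeper fall in 129S2SvPAs. That call ended in 10 of the 12 fits that leave out 1 array (adjusted p up to 0.0942 in limma), with no filter (0.0613) and with the replicate block (0.0539). The injury marker Lcn2 had a difference of 3.22 (SE 0.52, adjusted p = 0.0307 in limma), with a larger rise in 129S2SvPAs, from 3.60, 3.59 and 3.44 in controls to 9.37, 10.20 and 10.63, against 3.81, 3.59 and 3.56 to 6.08, 7.56 and 7.24 in C57BL6J. It ended in 9 of these 12 fits (adjusted p up to 0.0921 in limma) and with no filter (0.0696). The coactivator gene Ppargc1a had a difference of -0.91 (SE 0.17, adjusted p = 0.0479 in limma), and in C57BL6J its response was -0.17. It ended in 11 of the 12 fits (adjusted p up to 0.145 in limma), with quantile normalization (0.0541), the stricter filter (0.0871), the trended prior (0.0604) and the replicate block (0.106), and its size is under a log2 difference of 1. Without the array that stands apart, all 3 were called.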

How the results depend on the processing

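No result changed sign while called. Of 28 calls of single genes, 12 held under every alternative, and 15 when the demand for a log2 difference of at least 1 is set aside. With array weights the counts were 9 lower in the C57BL6J response, 2 higher in the 129S2SvPAs response, 3 lower in the difference of responses, 6 higher in 129S2SvPAs controls, and 8 lower and 1 higher in anti-GBM GN between strains. With only the groups compared, they were 5 lower in the C57BL6J response, 1 lower between controls and 1 lower between challenged mice. With no filter they were 0 lower in the difference of responses, 1 lower between controls and 3 lower between challenged mice. With a log2 difference of at least 1, 6 were lower in the 129S2SvPAs response and 2 between challenged mice. The share of all genes called under each of these settings is not given here. A changed count is therefore not a result about the listed genes alone.

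Leaving out 1 array gave 2 to 5 lower genes in C57BL6J, 9 to 16 in 129S2SvPAs, 0 to 2 in the difference of responses, 1 to 2 lower and 2 to 4 higher between controls, and 2 to 6 lower between challenged mice. The median between challenged mice ran from -0.32 to -0.10, and that between controls from -0.01 to 0.18. The share of all genes called in these fits is not given here either, and the cause of these changes was not tested.

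The replicate numbers of the labels were tried as a block. Deviations from group means correlated at -0.38 to 0.33 between samples of the same number (median 0.152, over 0.1 in 11 of 18 pairs). Between samples of other numbers they correlated at -0.387 to 0.356 (median -0.0615, over 0.1 in 9 of 36). Deviations within a group sum to 0, so these correlations are not independent of each other. All 3 pairs were over 0.1 between C57BL6J control and anti-GBM GN (0.208 to 0.330) and between the controls of the strains (0.239 to 0.284), so the numbers were taken to pair the samples in those comparisons. They were not over 0.1 in all pairs of the other comparisons (-0.157 to 0.183 in 129S2SvPAs, -0.380 to 0.121 between challenged mice), where the samples share only a number. The block was an effect of each number common to all 4 groups, not a fit paired within single comparisons. It cannot show what such a pairing would change, and the main fit leaves pairing out. The block changed no call of a listed gene in the C57BL6J response or between controls. Elsewhere it ended the calls of Lrp2 in 129S2SvPAs and Dnase1 in the difference of responses, and added Napsa between challenged mice (-0.69, adjusted p = 0.0427 in limma). With the replicate block 3 genes were lower in C57BL6J, 12 in 129S2SvPAs and 0 in the difference of responses. Between strains 2 were lower and 3 higher in controls, and 6 lower in anti-GBM GN. The share of all genes called with the block is not given here.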

Other observations

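A probe set annotated with both Ass1 and a predicted gene, Gm5424, was outside the rule for named genes because it carries 2 symbols. It read 12.75 ± 0.03 in C57BL6J controls, 12.31 ± 0.17 in challenged C57BL6J mice, 12.85 ± 0.26 in 129S2SvPAs controls and 12.00 ± 0.58 in challenged 129S2SvPAs mice (SD, n = 3 in each). The challenged arrays lay between 12.21 and 12.51 in C57BL6J, below controls at 12.72 to 12.78, and between 11.37 and 12.50 in 129S2SvPAs, below controls at 12.60 to 13.11.

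Outside the 39 genes, Akr1c21, a steroid-metabolising aldo-keto reductase of the kidney, was lower in 129S2SvPAs in both treatments. It read 13.55, 13.46 and 13.56 in C57BL6J controls and 8.28, 8.16 and 7.79 in 129S2SvPAs controls (-5.45, SE 0.44, adjusted p = 2.76e-05 in limma). In challenged mice it read 13.32, 13.08 and 13.37 in C57BL6J and 5.46, 7.36 and 7.63 in 129S2SvPAs (-6.44, SE 0.44, adjusted p = 8.59e-06 in limma). The aminoacylase gene Acy1 was higher in 129S2SvPAs, by 1.86 in controls and 2.05 in anti-GBM GN (SE 0.18 in both, adjusted p = 9.72e-05 and 5.65e-05 in limma).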
